A study of Mus musculus with 26 samples.

Results

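Calcium and iron enter the body through the enterocytes of the proximal small intestine (SI), and 10 genes that carry out or regulate this uptake were followed in mice with a knockout in intestinal epithelial cells (IECs). The genes were chosen by name for their textbook roles, with earlier results of these data known. All 10 were found among the 55487 genes of the count table. *Trpv6*, *S100g*, *Atp2b1* and *Vdr* served as the calcium genes. *Cybrd1*, *Slc11a2*, *Fth1*, *Slc40a1*, *Heph* and *Tfrc* served as the iron genes. RNA-seq of 3′ ends was carried out on proximal SI tissue from 26 mice aged 8 to 12 weeks. All mice were homozygous for a loxP-flanked target gene and received 5 daily injections of tamoxifen. The knockout mice (labelled tg) also carried Villin-creERT2, a tamoxifen-dependent Cre under a promoter active along the intestinal epithelium, and the control littermates (labelled wt) did not, so that control mice had the floxed alleles and the drug but no Cre. Tissue was taken 3 days after the last injection from 7 mice per genotype, or 7 days after it from 6 mice per genotype. A piece of tissue held lamina propria and muscle besides the epithelium, in which alone Cre was active, so fewer cells of a type and less RNA per cell cannot be told apart in these values.

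Calcium is taken up across the enterocyte by an apical channel, is carried through the cytosol by a binding protein and is pumped out at the basolateral side, and vitamin D acting through its receptor raises the expression of this machinery. Dietary iron is reduced at the apical membrane, imported by a proton-coupled transporter, and then either stored in ferritin or exported by ferroportin, after which it is oxidized and bound to transferrin. When iron is scarce in the cytosol, iron regulatory proteins bind hairpins in the untranslated regions (UTRs) of several of these messenger RNAs, blocking translation where the hairpin lies in the 5′ UTR and stabilizing the message of the transferrin receptor, where hairpins lie in the 3′ UTR.

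Gene positions are given for GRCm38, with the strand. The calcium genes are *Trpv6* (chr6:41620624-41636405, minus), *S100g* (chrX:162961992-162964599, minus), *Atp2b1* (chr10:98914406-99026143, plus) and *Vdr* (chr15:97854425-97910630, minus). The iron genes are *Cybrd1* (chr2:71117923-71142926, plus), *Slc11a2* (chr15:100387898-100425072, minus), *Fth1* (chr19:9980598-9985098, plus), *Slc40a1* (chr1:45908068-45926523, minus), *Heph* (chrX:96455359-96574485, plus) and *Tfrc* (chr16:32608920-32632794, plus). Levels sum all reads counted over the exons of a gene, most of which come from the end of its 3′ UTR in this kind of library.

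The libraries held between 3720168 and 6338016 counts, and levels are given as CPM, the count of a gene scaled to its library's total. A gene at 0 counts could still have up to 3, a limit that covers counting error only. A gene was called where the quasi-likelihood test of edgeR gave an adjusted p under 0.05 over all genes tested. The summed level of 10 epithelial marker genes lay between 7053 and 8854 CPM in control mice and between 3500 and 4910 CPM in knockout mice at 7 days, with 7 of the 10 called lower. At 3 days the ranges were 1845 to 5602 CPM in control and 1346 to 5475 CPM in knockout mice, with none of the 10 called. All 7 markers of dividing cells were called lower in knockout mice at 7 days. Stomach markers summed to over 100 CPM in 4 libraries and pancreatic acinar markers to over 10000 CPM in another 4, and values without these libraries are given where a call depended on them.

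At 7 days, the calcium genes *S100g* and *Vdr* and the iron genes *Slc11a2*, *Tfrc* and *Heph* were lower in knockout than in control mice, and *Fth1* was higher. Of the 10 genes, 9 passed the filter on zeros, and of these 1 was called higher, against 19.7% of all genes tested, and 5 lower, against 18.8% of all genes tested. Each of the 5 lower genes had its highest knockout value below its lowest control value, a separation found in 11.6% of all genes tested. The median log2 fold change of the 9 genes was -0.78, beside -0.02 over all genes tested. At 3 days none of the 10 genes was called by edgeR, against 1.43% of all genes tested, with 2 at an unadjusted p under 0.05 and 1 called by the Wald test of DESeq2. Their median log2 fold change at 3 days was 0.11, beside -0.03 over all genes tested.

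**Figure D1:**
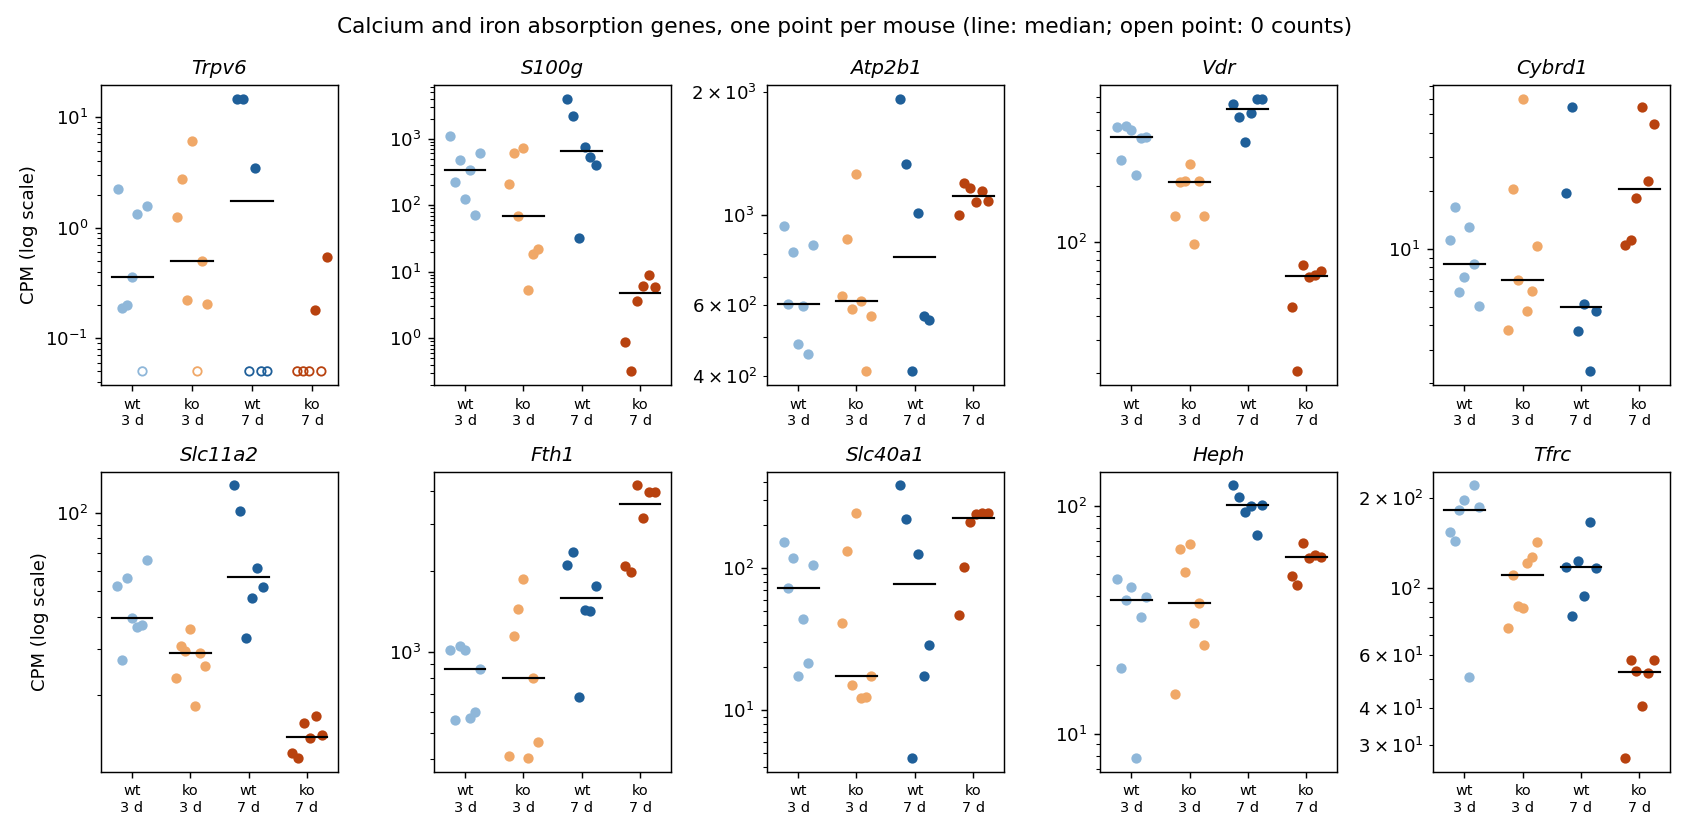
CPM (log axis) of the 10 genes, with 1 point per mouse, grouped by genotype (wt, control; ko, knockout) and days after tamoxifen (7 mice per genotype at 3 days, 6 at 7 days); lines are medians and open points are libraries with 0 counts. The knockout values at 7 days lie below all control values of that day for S100g, Vdr, Slc11a2, Heph and Tfrc, and the control values of S100g and Slc40a1 are widely spread.

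The calcium entry channel *Trpv6*, which sits in the apical membrane, was near the limit of detection in this tissue. Control mice held 0, 0.355 and 2.26 CPM (lowest, median and highest) at 3 days and 0, 1.73 and 14.8 CPM at 7 days. In knockout mice the values were 0, 0.504 and 6.09 CPM at 3 days and 0, 0 and 0.54 CPM at 7 days. At 7 days no knockout library had more than 3 counts, while 3 control libraries had 0 counts and the other 3 reached up to 87. The groups overlapped at both days. The 3-day difference was not called (log2 fold change 1.11 ± 0.86 (SE), adjusted p = 0.633), and *Trpv6* was not tested at 7 days because 4 of the 6 knockout libraries were at 0.

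The cytosolic calcium carrier *S100g* (calbindin-D9k) showed the largest genotype difference at 7 days of the 9 genes tested. At 3 days its level was 71.7, 335 and 1083 CPM in control mice and 5.29, 67.7 and 730 CPM in knockout mice. Both groups were broad and overlapped, although knockout replicates 3, 5, 6 and 7 (67.7, 5.29, 18.5 and 22.2 CPM) lay below the lowest control mouse. The difference was not called (log2 fold change -0.63 ± 0.87, adjusted p = 0.82). At 7 days control mice had 32.7, 643 and 4018 CPM and knockout mice 0.317, 4.77 and 9.05 CPM. No knockout library reached the lowest control library, although the control libraries themselves differed 123-fold. The fitted level was 296-fold lower in knockout mice (log2 fold change -8.21 ± 0.97, adjusted p = 1.9e-06). Knockout counts of *S100g* at 7 days ran from 2 to 55, so the size of this fold rests on few reads.

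*S100g* and *Trpv6* are textbook targets of the vitamin D receptor, which binds DNA as a pair with a retinoid X receptor over repeats of a short element close to AGGTCA. Since both genes had their lowest mean in the knockout mice at 7 days, the 250 bases before their starts are shown (RefSeq, GRCm38.p6), with AGGTCA and its reverse complement TGACCT in capitals. The *S100g* stretch lies at chrX:162964600-162964849 and the *Trpv6* stretch at chr6:41636406-41636655, both on the minus strand and written 5′ to 3′ toward the gene.
S100g: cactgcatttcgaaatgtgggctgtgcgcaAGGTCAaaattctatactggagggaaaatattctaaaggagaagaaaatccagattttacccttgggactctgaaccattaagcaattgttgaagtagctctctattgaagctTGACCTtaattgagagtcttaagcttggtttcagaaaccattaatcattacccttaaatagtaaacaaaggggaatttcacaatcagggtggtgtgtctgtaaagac
Trpv6: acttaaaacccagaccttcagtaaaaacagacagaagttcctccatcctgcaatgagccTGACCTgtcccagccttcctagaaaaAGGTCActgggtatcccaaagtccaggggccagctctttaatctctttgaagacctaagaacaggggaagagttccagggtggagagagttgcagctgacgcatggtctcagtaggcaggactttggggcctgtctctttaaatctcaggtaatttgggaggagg
Each stretch held 2 matches, which began 220 and 107 bases before the start of *S100g* and 191 and 165 bases before the start of *Trpv6*. In each stretch 1 match read AGGTCA and the other TGACCT, so the 2 lay in opposite directions and not side by side. Over all 32851 promoters of this length, 14% held at least 1 match on either strand and 1.36% held 2 or more. Promoter entries were found for 7 of the 10 genes (10 promoters in all), and the only ones with a match were those of *S100g* and *Trpv6*. No match to a longer element was searched for, and a match describes letters only.

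The calcium pump *Atp2b1*, which exports calcium at the basolateral membrane, was not called at either day. Control mice had 453, 602 and 935 CPM and knockout mice 411, 613 and 1259 CPM at 3 days. At 7 days the values were 412, 787 and 1931 CPM in control and 995, 1111 and 1195 CPM in knockout mice. The knockout libraries at 7 days lay close together, inside the wide range of the control libraries. The log2 fold changes were small beside their errors (0.19 ± 0.25 at 3 days and 0.24 ± 0.27 at 7 days, adjusted p = 0.806 and 0.532), and the 95% interval of the SE at 7 days ran from -0.29 to 0.76.

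The vitamin D receptor *Vdr* was lower in knockout mice at 7 days, and at 3 days the call depended on the tool. Control mice had 229, 369 and 421 CPM and knockout mice 97.4, 210 and 262 CPM at 3 days. The ranges overlapped only through the highest knockout library (262 CPM) and the lowest control library (229 CPM), and edgeR gave a log2 fold change of -0.83 ± 0.22 with an adjusted p of 0.0735. DESeq2 called this difference (adjusted p = 0.00938), and so did edgeR without knockout replicate 4 (adjusted p = 0.0463). At 7 days *Vdr* was at 343, 522 and 590 CPM in control mice and at 20.3, 65.9 and 75.5 CPM in knockout mice. The groups were far apart, with an 8.66-fold lower level in knockout mice (log2 fold change -3.11 ± 0.25, adjusted p = 1.2e-08).

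Of the other calcium genes, the list of 19 channels, pumps, exchangers, buffers and tight junction proteins had 17 tested genes. At 7 days 7 of them were called lower and 1 higher, beside 18.8% lower and 19.7% higher over all genes tested, with a median log2 fold change of -0.30, and none was called at 3 days. Among the genes called lower were *Cldn15*, a pore-forming claudin of the tight junction (log2 fold change -2.48 ± 0.14, adjusted p = 1.5e-10), and *Calm3*, which encodes a calcium sensor (-0.75 ± 0.10). *Cldn15* was at 365, 427 and 465 CPM in control mice and at 55.2, 77.5 and 99.5 CPM in knockout mice, with no overlap. The claudin *Cldn12* was called higher by 0.46 ± 0.14 on the log2 scale. The basolateral routes besides *Atp2b1*, the pump *Atp2b4* and the sodium-calcium exchanger *Slc8a1*, were not called (0.27 ± 0.13 and 0.10 ± 0.15 on the log2 scale at 7 days). *Trpv5* and *Calb1*, the channel and the buffer that do this work in the kidney, had at most 2 counts in any library.

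The list of 10 vitamin D pathway genes had 5 tested genes at 7 days, of which 2 were called lower and none higher (18.8% and 19.7% of all genes tested), and none of the 6 tested at 3 days was called. *Rxra*, the retinoid X receptor that pairs with the vitamin D receptor, was at 60.5, 74.5 and 80.9 CPM in control mice and at 31.2, 37.8 and 42.8 CPM in knockout mice at 7 days, without overlap. Its log2 fold change was -0.93 ± 0.10 (adjusted p = 3.7e-07). *Pdia3*, a disulfide isomerase also described as a membrane vitamin D binding protein, fell by 0.76 on the log2 scale (SE 0.12). *Cyp24a1*, which degrades active vitamin D, had at most 1 count in any library.

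The iron entry genes differed from each other. *Cybrd1*, the apical ferric reductase, was at 5.04, 8.32 and 16.4 CPM in control mice and at 3.78, 6.88 and 60.1 CPM in knockout mice at 3 days. At 7 days it was at 2.31, 4.96 and 54.3 CPM in control and at 10.5, 20.5 and 54.3 CPM in knockout mice. A single library held the top value in each of the 3-day knockout and 7-day control groups, so the groups overlapped at both days. The differences were not called (log2 fold change 0.92 ± 0.56 at 3 days and 0.93 ± 0.59 at 7 days, adjusted p = 0.512 and 0.244). Without control replicate 2 of day 7, one of the 4 libraries with stomach markers, *Cybrd1* was called higher at 7 days (log2 fold change 1.90, adjusted p = 0.00458).

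*Slc11a2*, the apical ferrous iron transporter DMT1, was lower in knockout mice at 7 days. At 3 days it was at 27.2, 39.4 and 66 CPM in control mice and at 18.1, 28.9 and 35.7 CPM in knockout mice. The groups overlapped there and the difference was not called (log2 fold change -0.59 ± 0.20, adjusted p = 0.18). At 7 days control mice had 33, 56.7 and 128 CPM and knockout mice 11.4, 13.8 and 16.5 CPM. Every knockout library was below every control library, and the fitted level was 4.98-fold lower (log2 fold change -2.32 ± 0.26, adjusted p = 9.0e-07). Counts per gene do not separate the transcript forms of *Slc11a2* with and without an iron-responsive hairpin. An exon of *Slc11a2* overlaps the gene Gm5475 on the opposite strand, and strand was not stated for the counting.

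*Fth1*, the heavy chain of the iron store ferritin, was the only one of the 10 genes called higher at 7 days. Its level at 3 days was 559, 861 and 1049 CPM in control mice and 402, 803 and 1867 CPM in knockout mice. These ranges overlapped, and the difference was not called (log2 fold change 0.35 ± 0.35, adjusted p = 0.724). At 7 days control mice had 678, 1597 and 2352 CPM and knockout mice 1991, 3557 and 4188 CPM. The 2 lowest knockout libraries lay within the range of the control libraries and the others above it. The level was 2.04-fold higher in knockout mice (log2 fold change 1.03 ± 0.24, adjusted p = 0.00183). *Ftl1*, the light chain, was at 82.4, 112 and 128 CPM in control and at 331, 374 and 454 CPM in knockout mice at 7 days, without overlap (log2 fold change 1.82 ± 0.13, adjusted p = 3.3e-09). The 2 listed *Fth1* pseudogenes reached at most 0.21 CPM in any library. Reads of *Fth1* or *Ftl1* that also match other copies were counted only at a primary alignment that passed the authors' mapping quality cutoff, so part of either level is uncertain.

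The iron exporter *Slc40a1* (ferroportin), in the basolateral membrane, was not called at either day. It was at 17.4, 72 and 152 CPM in control mice and at 12.3, 17.4 and 241 CPM in knockout mice at 3 days. At 7 days the values were 4.62, 77 and 380 CPM in control and 46.6, 225 and 244 CPM in knockout mice. The control libraries of day 7 differed 82.2-fold and covered the whole range of the knockout libraries. The log2 fold change was 0.02 ± 0.70 at 3 days and 0.53 ± 0.68 at 7 days (adjusted p = 0.994 and 0.587), and the 95% interval at 7 days ran from -0.79 to 1.86, which includes both a rise and a fall.

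*Heph*, the ferroxidase hephaestin that works with ferroportin, was lower in knockout mice at 7 days by a small factor. At 3 days it was at 7.8, 38.6 and 47.7 CPM in control mice and at 14.9, 37.3 and 67.7 CPM in knockout mice. The groups overlapped (log2 fold change 0.49 ± 0.37, adjusted p = 0.624). At 7 days control mice had 74.7, 101 and 123 CPM and knockout mice 44.9, 59.3 and 68.7 CPM. These ranges did not overlap, and the level was 1.72-fold lower (log2 fold change -0.78 ± 0.12, adjusted p = 3.7e-05), a call that was lost when all 26 libraries shared 1 fit (adjusted p = 0.0576). An exon of *Heph* overlaps *Hsf3* on the opposite strand.

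*Tfrc*, the transferrin receptor, takes up iron from the circulation and is abundant on dividing cells. At 3 days it was at 50.8, 182 and 220 CPM in control mice and at 74, 111 and 142 CPM in knockout mice. The overlap came from 1 low control library, which also held stomach markers, and the difference was not called (log2 fold change -0.48 ± 0.23, adjusted p = 0.376). At 7 days control mice had 80.6, 117 and 166 CPM and knockout mice 27.2, 52.5 and 57.9 CPM. No value overlapped, and the level was 2.4-fold lower in knockout mice (log2 fold change -1.26 ± 0.19, adjusted p = 2.8e-05). The summed level of the 7 markers of dividing cells moved with it, from 593 to 764 CPM in control and from 148 to 247 CPM in knockout mice at 7 days, and its part in the *Tfrc* difference was not tested.

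**Figure D2:**
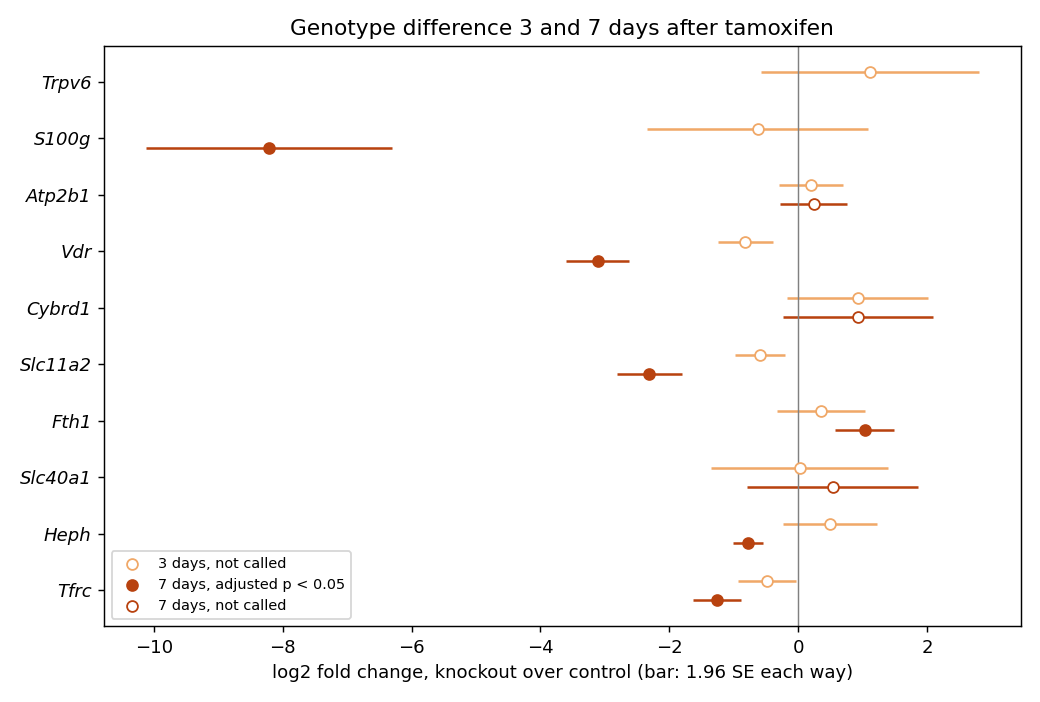
Log2 fold change of each gene between knockout and control mice (x axis; bars are 95% intervals from the SE) at 3 days (7 mice per genotype) and 7 days (6 mice per genotype); filled points were called by edgeR. At 3 days no point is filled, at 7 days S100g lies farthest from 0 with a log2 fold change of -8.21, and Trpv6 has no 7-day point because it was not tested.

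Iron-responsive hairpins were looked for because *Fth1* and *Tfrc*, whose messages carry them, moved in opposite directions at 7 days. The letters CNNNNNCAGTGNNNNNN, in which the 5-base arms pair (G with T allowed), were searched outside the coding sequence of protein-coding transcripts (GENCODE release M21, GRCm38), on the strand of the transcript. Matches were found in 3 of the 10 genes and in 0.731% of 21877 protein-coding genes. They are shown 5′ to 3′ with 6 further bases on each side and the loop in capitals, together with that of *Ftl1*.
Fth1: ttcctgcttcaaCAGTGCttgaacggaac
Ftl1: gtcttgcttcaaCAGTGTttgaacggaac
Slc40a1: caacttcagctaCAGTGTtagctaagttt
Tfrc site 1: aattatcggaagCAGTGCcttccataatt
Tfrc site 2: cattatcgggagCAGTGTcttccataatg
Tfrc site 3: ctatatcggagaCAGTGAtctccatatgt
Tfrc site 4: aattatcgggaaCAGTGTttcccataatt
The sites of *Fth1* (chr19:9982732-9982760, plus strand), *Ftl1* (chr7:45459779-45459807, minus strand) and *Slc40a1* (chr1:45925465-45925493, minus strand) lie in the 5′ UTR. The 4 sites of *Tfrc* lie in its 3′ UTR on the plus strand (chr16:32631219-32631247, chr16:32631598-32631626, chr16:32631663-32631691 and chr16:32631710-32631738). Of the genes with a 5′ UTR site, *Fth1* and *Ftl1* were called higher and *Slc40a1* was not called, and translation, on which these sites are known to act, was not measured. No match in the other 7 genes says only that these letters are not there.

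Of the proteins that read these hairpins, *Aco1* (IRP1) and *Ireb2* (IRP2) moved in opposite directions at 7 days. *Aco1* was at 93.3, 109 and 142 CPM in control and at 51.3, 54 and 61.3 CPM in knockout mice, without overlap (log2 fold change -1.01 ± 0.12, adjusted p = 1.7e-06). *Ireb2* was at 78.8, 97.1 and 142 CPM in control and at 120, 136 and 143 CPM in knockout mice, and the ranges overlapped (log2 fold change 0.41 ± 0.13, adjusted p = 0.0174). Over the list of 14 iron storage and sensing genes, 10 were tested at 7 days, of which 4 were called higher and 3 lower (19.7% and 18.8% of all genes tested), and none was called at 3 days. Besides *Ftl1* and *Ireb2*, *Pcbp2*, which hands iron to ferritin, was higher (0.44 ± 0.10 on the log2 scale). *Fbxl5*, the iron-sensing ligase subunit that marks *Ireb2* protein for degradation, was lower (-0.52 ± 0.12), and its exons overlap *Bst1* on the opposite strand.

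Of 16 other iron transport genes, 14 were tested, and at 7 days 5 were called higher and 1 lower (19.7% and 18.8% of all genes tested), with a median log2 fold change of 0.27. *Steap1*, a membrane metalloreductase relative, rose from 1.71, 2.99 and 6.3 CPM in control mice to 69, 72.5 and 97 CPM in knockout mice (log2 fold change 4.63 ± 0.20, adjusted p = 4.5e-12). It was also higher at 3 days (2.11 ± 0.36, adjusted p = 0.00455), as was *Steap2* (0.88 ± 0.16, adjusted p = 0.00887), the only genes of this list called then, which are named here after their values were seen. *Slc39a8*, a zinc, manganese and iron importer, was at 3.47, 4.55 and 8.36 CPM in control and at 32, 39.3 and 59.6 CPM in knockout mice at 7 days (log2 fold change 2.98 ± 0.24). *Slc25a28*, the mitochondrial iron importer mitoferrin 2, was higher by 0.61 ± 0.12 on the log2 scale. *Steap3*, the endosomal reductase that works beside the transferrin receptor, was the gene called lower (-1.81 ± 0.26), with at most 16 counts in any knockout library of that day. The importer *Slc39a14* was not called (-0.23 ± 0.14).

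Among 18 heme genes, 4 were called higher and 5 lower at 7 days, shares near those of all genes tested (19.7% and 18.8%). At 3 days *Blvrb*, a biliverdin reductase named after its value was seen, was the only one called (log2 fold change -0.55 ± 0.13, adjusted p = 0.043). *Slc46a1*, a proton-coupled carrier of folate and heme in the same apical membrane, was at 143, 261 and 302 CPM in control mice and at 18.1, 62.6 and 66.8 CPM in knockout mice at 7 days, without overlap (log2 fold change -2.18 ± 0.25, adjusted p = 1.2e-06). The heme exporter *Flvcr1* was also lower (-1.89 ± 0.17), as was the transporter *Abcg2* (-0.52 ± 0.11). *Hmox1*, the inducible heme oxygenase that frees iron from heme, went from 1.71, 2.7 and 4.78 CPM to 38.1, 45.5 and 52.5 CPM (log2 fold change 3.96 ± 0.16, adjusted p = 1.6e-12). *Hmox2* (0.85 ± 0.09) and the lysosomal heme carrier *Slc48a1* (0.75 ± 0.13) were higher. At 3 days *Hmox1* and *Slc46a1* were not called (0.32 ± 0.28 and 0.42 ± 0.57).

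Of 20 iron-sulfur cluster assembly genes, all tested, 11 were called higher and none lower at 7 days (19.7% and 18.8% of all genes tested), with a median log2 fold change of 0.47. *Hspa9*, the mitochondrial chaperone that also serves protein import, was higher at 3 days (1.17 ± 0.22, adjusted p = 0.00954) and at 7 days (2.21 ± 0.11, adjusted p = 3.1e-11), and it was the only gene of the list called at 3 days. *Nfu1* (1.06 ± 0.12) and *Nubp1* (0.87 ± 0.13) followed at 7 days among the more abundant genes. In the list of 15 genes of the hypoxia-inducible factor pathway, which drives *Slc11a2*, *Cybrd1* and *Slc40a1* in iron-poor enterocytes through *Epas1* (HIF-2α), 5 were called higher and 3 lower at 7 days, beside 19.7% and 18.8% of all genes tested, which the lower share is near. At 3 days 3 of the 15 were called higher and none lower, beside 1.43% of all genes tested called in either direction. *Epas1* itself was not called (-0.30 ± 0.17 at 3 days and 0.21 ± 0.12 at 7 days). *Hif1a* was higher at both days (0.85 ± 0.18 and 1.92 ± 0.19), as was the angiogenic factor *Vegfa* (0.73 ± 0.16 and 0.93 ± 0.12), and the glucose carrier *Slc2a1* reached 2.36 ± 0.18 at 7 days. Carbonic anhydrase *Car9* (-1.99 ± 0.22) and the prolyl hydroxylase *Egln3* (-1.32 ± 0.18) were lower at 7 days. Of the list genes named above, exons of *Pdia3*, *Pcbp2*, *Ftl1*, *Flvcr1*, *Hmox2*, *Slc48a1*, *Nubp1*, *Hif1a*, *Slc2a1*, *Slc8a1* and *Car9* overlap a gene on the opposite strand, and reads of such partners cannot be told apart without strand.

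**Figure D3:**
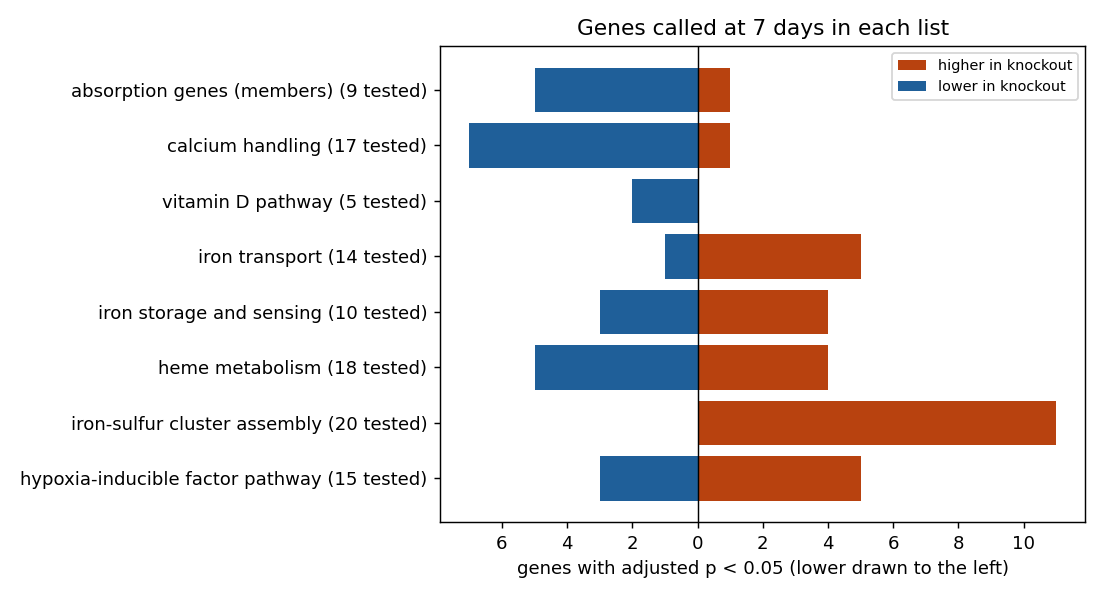
Number of genes called higher (to the right) or lower (to the left) in knockout mice at 7 days for the 10 absorption genes and for 7 lists of related genes, with the number tested in brackets. Over all genes tested, 19.7% were called higher and 18.8% lower. The absorption genes have 5 lower and 1 higher, and the iron-sulfur cluster assembly list has 11 higher and none lower.

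Because the epithelial markers were lower in knockout mice at 7 days (mean sum 4277 CPM against 7902 CPM in control mice, a ratio of 0.541), each gene was also expressed per 1000 CPM of these markers, as a description with no test. On this scale *S100g* remained apart, at 3.96, 83.5 and 515 in control and 0.0906, 1.01 and 2.09 in knockout mice. *Vdr* was at 41.6, 68.1 and 72.9 in control and at 5.8, 15.1 and 15.4 in knockout mice, and *Slc11a2* at 4.01, 6.84 and 16.4 in control and at 3.01, 3.16 and 3.8 in knockout mice. These 3 genes were thus below every control library also relative to the epithelial markers, *Slc11a2* by a narrow margin. *Heph* was at 8.44, 13.3 and 15.8 in control and at 12.5, 13.2 and 14.1 in knockout mice. *Tfrc* was at 10.9, 14.7 and 18.8 in control and at 6.86, 11.4 and 16.5 in knockout mice. The ranges of *Heph* and *Tfrc* overlapped on this scale, with medians 1.01-fold and 1.28-fold higher in control mice. *Fth1* was at 82.3, 210 and 319 in control and at 531, 791 and 917 in knockout mice, now without overlap. The 3 genes not called on the CPM scale had higher knockout medians on both scales, with ranges that overlapped. *Cybrd1* was at 0.261, 0.661 and 7.36 in control and at 2.66, 4.48 and 12.6 in knockout mice, a 6.78-fold higher median. *Slc40a1* was at 0.56, 10.7 and 48.6 in control and at 11.8, 47.8 and 56.2 in knockout mice, a 4.48-fold higher median. *Atp2b1* was at 50, 106 and 247 in control and at 232, 250 and 341 in knockout mice, a 2.37-fold higher median. How far a gene differed thus depended on whether it was scaled to the library or to the epithelial markers.

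The genotype difference itself was then compared between the days in a model with an interaction term, which uses all 26 libraries and so shares its control mice with the other comparisons. Of the 9 genes that were also tested at 7 days, it was called lower at 7 days for 4, against 9.07% of all genes tested, and higher for none. The difference of log2 fold changes was -7.54 ± 1.44 for *S100g* (adjusted p = 0.000337), -2.26 ± 0.35 for *Vdr* (adjusted p = 2.3e-05) and -1.70 ± 0.34 for *Slc11a2* (adjusted p = 0.000626). *Trpv6* is not counted among them. It entered this fit through the filter of day 3, no 7-day knockout library exceeded 3 counts, and its adjusted p of 0.00999 rose to 0.0587 without the 4 libraries with pancreatic markers. *Heph* had -1.24 ± 0.43 (adjusted p = 0.0429), and this call was lost in 15 of 26 fits that left out 1 library (adjusted p 0.0549 to 0.0856), without the libraries with pancreatic markers (-1.03, adjusted p = 0.175) and with the replicate block (adjusted p = 0.0657). The 15 were the fits without control replicate 2 or 6 or knockout replicate 2, 3 or 4 of day 3, and without control replicate 1, 2, 3, 4 or 6 or knockout replicate 1, 2, 4, 5 or 6 of day 7. The difference was not called for *Tfrc* (-0.76 ± 0.32, adjusted p = 0.114), although it was without the 4 libraries with stomach markers (-0.80, adjusted p = 0.0241), or for *Fth1* (0.70 ± 0.47, adjusted p = 0.345). For *Atp2b1*, *Cybrd1* and *Slc40a1* it was 0.08 ± 0.40, 0.04 ± 0.93 and 0.55 ± 1.08.

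Within each genotype, mice of day 7 were compared with mice of day 3. In control mice 6 of the 10 genes were called higher at 7 days, against 19.7% of all genes tested, and none lower. These were *Heph* (log2 fold change 1.97 ± 0.27, adjusted p = 5.5e-05), *Fth1* (1.36 ± 0.24), *Slc11a2* (adjusted p = 0.00807), *Vdr* (0.88 ± 0.15), *Atp2b1* (0.86 ± 0.30, adjusted p = 0.0344) and *Trpv6* (adjusted p = 0.0306). *Heph* was the 1 gene whose groups did not overlap, a separation found in 3.94% of all genes tested. The calls of *Atp2b1* and *Trpv6* depended on the setting and on single libraries. That of *Atp2b1* was lost without control replicate 2, 4, 5 or 6 of day 3 or replicate 1, 2 or 4 of day 7, with adjusted p from 0.0525 to 0.128. It was also lost with filterByExpr (adjusted p = 0.051) and without the libraries with stomach markers (0.0924) or pancreatic markers (0.0726). That of *Trpv6* was lost without control replicate 2, 3, 4 or 6 of day 3, with adjusted p from 0.0547 to 0.0594. It was also lost with DESeq2 (adjusted p = 0.104), with the replicate block (0.0539) and without the libraries with pancreatic markers (0.108). *S100g* had a log2 fold change of 1.97 ± 0.76 that did not pass the threshold (adjusted p = 0.0509) and passed it without control replicate 3 of day 7 (adjusted p = 0.0138), replicate 1 of day 3 (0.0262) or replicate 6 of day 7 (0.0441). It also passed with DESeq2 (0.0495) and with no filter on low counts (0.046).

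In knockout mice 9 genes were tested between the days. *Fth1* (1.94 ± 0.37, adjusted p = 0.000781) and *Atp2b1* (0.81 ± 0.23, adjusted p = 0.0106) were called higher, 2 genes against 16.7% of all genes tested. *S100g* (-5.70 ± 1.13), *Vdr* (-1.50 ± 0.29), *Tfrc* (-0.96 ± 0.18) and *Slc11a2* (-0.81 ± 0.17) were called lower, 4 genes against 20.2% of all genes tested. The groups did not overlap for *Fth1* on the higher side, against 6.26% of all genes tested, nor for *Vdr*, *Slc11a2* and *Tfrc* on the lower side, against 9.85% of all genes tested. *S100g* fell from 5.29, 67.7 and 730 CPM to 0.317, 4.77 and 9.05 CPM, with 1 mouse of day 3 inside the later range. Not called were *Slc40a1* (1.52 ± 0.68, adjusted p = 0.0904), *Cybrd1* (0.86 ± 0.59, adjusted p = 0.275) and *Heph* (0.61 ± 0.30, adjusted p = 0.12), each of which passed the threshold without knockout replicate 4 of day 3 (adjusted p = 0.00484, 0.00498 and 0.0263). *Slc40a1* (0.0496) and *Heph* (0.0278) also passed it without knockout replicate 2 of that day, and *Heph* without the libraries with pancreatic markers (0.0431). The median log2 fold change between the days was 1.05 for the 10 genes in control mice and 0.61 for the 9 in knockout mice, beside -0.06 and -0.15 over all genes tested. Marker sums also moved with the day. Of the 10 epithelial markers, 9 were called higher at 7 than at 3 days in control mice (median log2 fold change 1.33), the same direction as the 6 genes called there, while in knockout mice none was called higher and 1 lower (median 0.39). All 6 smooth muscle markers were called lower at 7 days in both genotypes. Smooth muscle markers summed to 1629 to 2933 CPM in control mice at 3 days and to 579 to 1037 CPM at 7 days. Their part in the day differences was not tested, and since each day's mice formed separate groups, an effect of batch and one of day cannot be told apart.

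The order of the group means differed among the genes. *S100g*, *Vdr*, *Slc11a2* and *Trpv6* were highest in control mice at 7 days and lowest in knockout mice at 7 days. For *S100g*, *Vdr* and *Slc11a2* the order between these ends was control then knockout mice of day 3. *Fth1*, *Atp2b1*, *Slc40a1* and *Cybrd1* had their highest mean in knockout mice at 7 days, *Heph* in control mice at 7 days and *Tfrc* in control mice at 3 days. The 3-day means of the genotypes were not told apart for any of the 10 genes by edgeR.

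Within a group, the levels of several of these genes varied together from mouse to mouse. Values of a pair come from the same library and share its tissue piece and depth. Over the 45 pairs of the 10 genes, correlations of log2 CPM centred on the group means were computed across the 26 libraries, with p from 100000 permutations within groups and adjustment over the 45 pairs. A total of 26 pairs passed, all with a positive correlation. The share among pairs of other genes was not computed, so this count is not shown to be particular to these genes. For *Atp2b1* and *Slc40a1*, Pearson's r was 0.92 (permutation p = 1e-05, the smallest these permutations can give, adjusted p = 9.0e-05) and Spearman's rho was 0.90 (permutation p = 2e-05). Without the 2 mice farthest from the median, r was 0.89. For *S100g* and *Slc40a1*, r was 0.90 (permutation p = 1e-05, adjusted p = 9.0e-05) and rho was 0.86 (permutation p = 1e-05), with r = 0.89 without the 2 farthest mice. Within the 4 groups, r of this pair was 0.92 and 0.92 at 3 days and 0.94 and 0.84 at 7 days (control, then knockout). The positive correlation was thus present in all 4 groups, with *S100g* much lower in knockout mice at 7 days. For *Atp2b1* and *Slc40a1* the within-group r was 0.96 and 0.93 at 3 days, and 0.96 and 0.28 at 7 days.

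**Figure D4:**
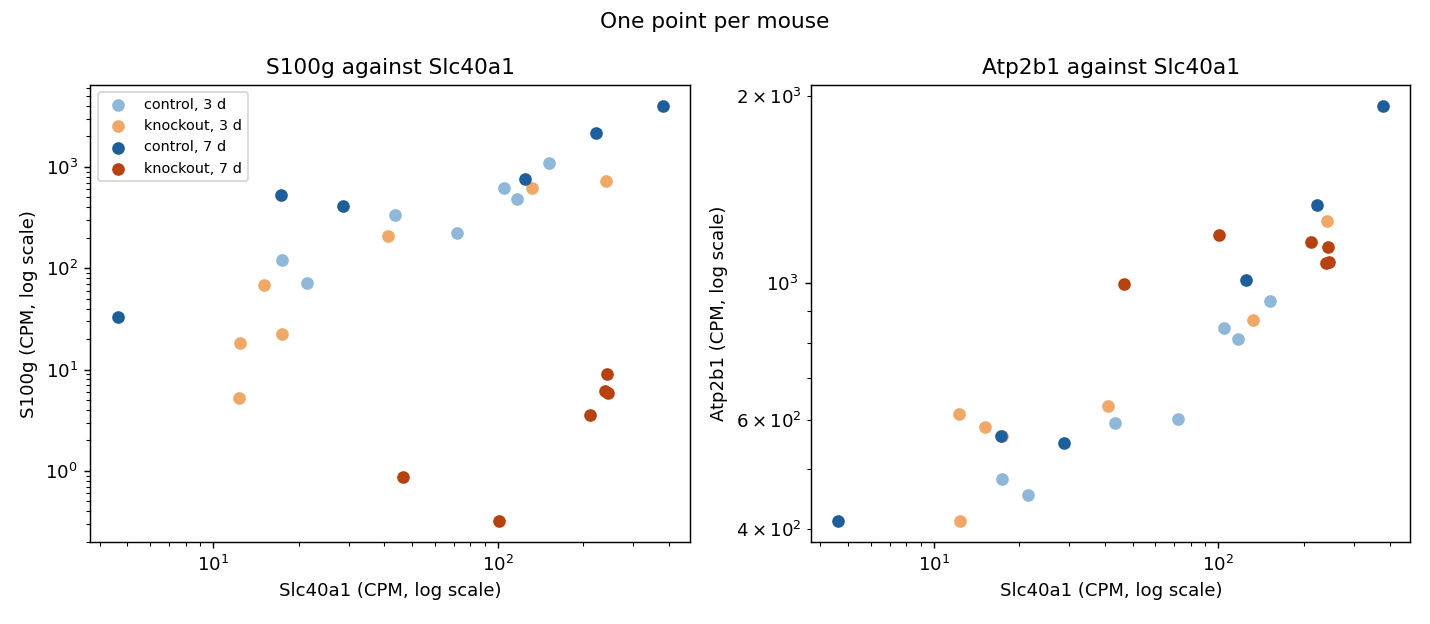
CPM of S100g (left) and of Atp2b1 (right) against CPM of Slc40a1 (log axes), with 1 point per mouse coloured by genotype and day. On the left the 6 knockout mice of day 7 lie below the band formed by the other mice, at 0.317 to 9.05 CPM of S100g, and on the right the values rise together in 3 of the groups, while the knockout mice of day 7 lie between 995 and 1195 CPM of Atp2b1.

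The genes whose within-group pattern over the 26 libraries was most like that of each gene were also listed, among 6963 genes that averaged 100 counts or more. Those of *S100g* were *Otop3* (r = 0.91), *Slc40a1* (0.90) and *Pdx1* (0.89). *Pdx1* encodes a transcription factor of the duodenum and pancreas. Its level in control mice at 7 days was 83.8, 59.7, 0.855, 55.8, 27.2 and 30.8 CPM (replicates 1 to 6), where *S100g* was 4018, 2178, 32.7, 755, 531 and 407 CPM. The library with the lowest *Pdx1* was also the one with the lowest *S100g*. In knockout mice at 7 days *Pdx1* was at 5.26, 22.2 and 28.6 CPM, beside a control median of 43.3 CPM. The control range of 0.855 to 83.8 CPM reached this low only through replicate 3, and the next lowest control mouse was at 27.2 CPM. In the same knockout mice *S100g* was below that of every control mouse. So was *Otop3*, at 3.08, 43.6 and 83.3 CPM in control and at 0, 1.85 and 2.47 CPM in knockout mice. At 7 days 5 markers of proximal SI summed to 2670 to 4569 CPM in control and 853 to 1994 CPM in knockout mice. Of these 5, 3 were called lower. Ileum markers (4 genes) summed to 221 to 364 CPM in control and 100 to 131 CPM in knockout mice, with 2 called lower and 1 higher. Control replicate 3 had the lowest control sum of proximal markers, and 335 CPM of ileum markers. Whether the place along the intestine at which the piece was cut had a part in the spread of *S100g* was not tested. Nearest to *Atp2b1* were *Slc40a1* (0.92), *Slc4a4* (0.86) and *Slc4a7* (0.83), both bicarbonate carriers, and *Slc4a4* was also nearest to *Slc11a2* (0.85). *Fth1* was nearest to *Papss2* (0.94), *Alpi* (0.93) and *Tmprss15* (0.90), the last 2 being enterocyte brush border enzymes, and *Vdr* to *Pigr* (0.86), *Slc25a45* (0.86) and *Alpi* (0.84). *Heph* was nearest to *Smim31* (0.94), and *Tfrc* to *Camk1d* (0.89) and *Diaph3* (0.85). *Cybrd1* was nearest to *Als2cl* (0.81) and *Atrn* (0.77). Some of these genes were not among the 3 nearest by Spearman's rho. They were *Slc40a1* for *S100g*, *Pigr* for *Vdr*, *Smim31* for *Heph*, and *Camk1d* and *Diaph3* for *Tfrc*.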

How the data were processed

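QuantSeq 3′ mRNA libraries from proximal SI of 26 mice were analysed, grouped by genotype and day as the labels give them. The authors trimmed reads with cutadapt 2.10, aligned them to GRCm38 with Subread and counted exons with featureCounts 2.0.1, giving primary alignments that touch several genes fractional weight, so the deposited values are estimated counts (95% whole). Alignments under a mapping quality cutoff were not counted. No strand option was stated. CPM were computed from the deposited counts and each library's total. Reads from 3′ ends carry no gene length, so levels are compared between mice, not between genes.

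Counts were rounded and tested with the edgeR 4.0.16 quasi-likelihood test (R 4.3.3, TMM, Benjamini-Hochberg over all genes tested), separately for each pair of groups and, for the change between days, over all 26 libraries. As in the study's methods, genes with 0 counts in over 50% of the samples of either group were left out of a comparison of 2 groups, and the fit over all 26 libraries kept genes that passed at either day. The SE of a log2 fold change was its size over the root of the F statistic. Each mouse gave 1 library, and no pair of libraries within a group was identical. DESeq2 1.42.0, other size factors and filters, a shared fit, a replicate block and leaving out each library served as alternatives. The block went by replicate number alone, so fits across days also joined different mice that shared a number. The code was tested on simulated data. The 10 genes and all lists were chosen with earlier results of these data known. List genes were named where they were among the 3 largest rises or falls at a day with a mean of at least 100 counts, or were partners of the 10 genes. The result for 1 further gene is not reported here. Overlapping exons were read from GENCODE release M21, promoters from RefSeq (GRCm38.p6). Python 3.11.15 was used for the levels, correlations and figures.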

Additional observations from a re-analysis of the deposited data

Results flagged for a closer look

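Across the 10 genes, 40 groups of 6 or 7 mice were examined for a single mouse far from the others, and 3 were found. Chance gives about 5% of groups where values are normally distributed. CPM that are skewed or mostly 0 need not be, so the rate that applies here is not known. For *Cybrd1*, knockout replicate 4 of day 3 had 60.1 CPM, and the next mouse of its group 20.3 CPM. It was at 54.3 CPM in control replicate 2 of day 7, where the next mouse was at 19.5 CPM, and stomach markers summed to 5341 CPM in the same library. For *Trpv6*, knockout replicate 6 of day 7 had 0.54 CPM, which is 3 counts, and the next mouse was at 0.181 CPM.

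The genotype difference was compared between the days by the interaction test of edgeR over 26 libraries. It was called lower at 7 than at 3 days for 4 of the genes tested at both days, against 9.07% of all genes tested. The difference of log2 fold changes was -7.54 for *S100g*, -2.26 for *Vdr*, -1.70 for *Slc11a2* and -1.24 for *Heph*. *Heph* was not on the lower side at 3 days (log2 fold change 0.49). Its call was lost in 15 of 26 fits that left out 1 library and without the libraries with pancreatic markers. *Trpv6*, not tested at 7 days, had a fitted value of -6.34 that depends on the prior count, since all 6 knockout libraries of day 7 had at most 3 counts. The summed epithelial markers, which were 1.85-fold higher in control than in knockout mice at 7 days and 0.953-fold at 3 days, moved with these differences, and their part was not tested.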

How the results depend on the processing

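The 7-day calls of *S100g*, *Vdr*, *Slc11a2*, *Fth1* and *Tfrc* held in all 8 other settings and in all 12 fits that left out 1 library. The genotype effect at 3 days depended most on the processing. Over all genes, 297 were called at 3 days, against 782 with DESeq2, 810 with all 26 libraries in 1 fit, 99 with the replicate block, and, in settings chosen after seeing the data, 486 without the 4 libraries with stomach markers and 105 without the 4 with pancreatic markers. Leaving out 1 library gave 171 to 779. Of the 10 genes, DESeq2 called 1 at 3 days, and leaving out 1 library gave 0 to 1. The interaction called 3 of the 10 without the libraries with pancreatic markers. Differences that were not called changed sign as follows. *Slc40a1* at 3 days was -0.92 with the replicate block, -0.12 without the libraries with pancreatic markers, and -0.80 to 0.29 leaving out 1 library. The *Cybrd1* interaction was -0.03 with DESeq2, -0.01 with its size factors, -0.01 with filterByExpr, -0.35 without the libraries with pancreatic markers, and -0.31 to 1.04 leaving out 1 library. *Cybrd1* between days in control mice was -0.10 without the libraries with stomach markers, and -0.07 to 1.18 leaving out 1 library. Leaving out 1 library gave -0.12 to 0.36 for the *Atp2b1* interaction, -0.03 to 0.31 for *Atp2b1* at 3 days, and -0.31 to 0.00 for *Tfrc* between days in control mice. The cause was not tested.

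The genotypes share replicate numbers. Correlations of same-numbered mice ran from -0.427 to 0.617 (day 3) and from -0.513 to 0.684 (day 7), and 2 of 7 and 2 of 6 correlated best with their own number. How many would do so by chance was not computed, so this check cannot tell whether same-numbered mice were pairs. The main tests did not pair them. With the replicate block, 0 of the 10 genes were called at 3 days, 6 at 7 days and 4 in the interaction (*Trpv6* included), where *Heph* had an adjusted p of 0.0657 by edgeR. The block went by replicate number alone. In the interaction and in the comparisons between days it also joined different mice of day 3 and day 7. Its results there thus cannot tell whether the genotypes were paired. *Trpv6* had too few counts to show a difference in most libraries.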
